A study of Mus musculus with 6 samples.

Results

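Interferon response genes and the interferon regulatory factors (IRFs) were described in temporomandibular joint (TMJ) tissue of mice lacking Igf2bp2. The members were taken by gene symbol, not by measured values: the IFIT, IFITM, OAS, GBP, IRGM, IFI and IRF families, STAT genes and 13 further interferon-stimulated genes, which gave 72 of the 22032 genes of the count table. Mx1 and Mx2, which the same definition covers, matched no row of the table. The study sequenced poly(A) RNA of TMJ tissue from littermate mice aged 10 weeks, with 3 libraries labelled Igf2bp2 knockout (KO, Igf2bp2-/-) and 3 labelled wild type (WT). IGF2BP2 is an RNA-binding protein that recognises m6A marks on mRNA. The sources used here do not give the deleted part of the gene or whether a library holds 1 animal or several.

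Interferons are cytokines that put cells into an antiviral state. Type I interferon acts through the receptor IFNAR and the kinases JAK1 and TYK2, which lead to a complex of STAT proteins and IRF9 that binds the interferon-stimulated response element (ISRE). Interferon gamma acts through IFNGR and JAK1 and JAK2, which lead to STAT dimers that bind the gamma-activated sequence (GAS). IRF proteins carry these signals or set the identity of immune cells, and osteoclast formation is restrained by some of them, IRF8 among these.

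Of the 72 members, 62 had enough counts to test. Irf8, Irf4, Gbp10, Ifi207, Ifi35 and Rsad2 were higher in KO, and Ifi203, Ifit3, Gbp3, Oasl2, Ifit2 and Ifit1 were lower (edgeR quasi-likelihood test, false discovery rate (FDR) under 0.05 over all tested genes). That is 9.68% of tested members in each direction, while 9.15% of all 14632 tested genes were higher and 8.48% lower, so the share of members that changed was near the background. The changes were moderate, from 1.40-fold in Rsad2 to 2.16-fold in Irf8. The median log2 difference of the tested members was -0.20, against -0.01 over all tested genes, and 67.7% of the members had a negative difference, against 51.0% of all genes. With the 6 libraries taken as separate samples, 6 members were higher and 12 lower of 61, with 12.6% and 12.4% of all genes called higher and lower. By the Wald test of DESeq2, Gbp10, Ifi207, Ifi35, Rsad2, Ifit1, Ifit2 and Oasl2 did not pass (FDR from 0.0866 for Gbp10 to 0.191 for Ifit1), in a test that called 6.12% of all genes higher and 5.04% lower. With the replicate number as a block on 6 separate libraries, 6 members were higher and 9 lower, against 10.8% and 10.5% of all genes.

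Leaving out 1 library changed several calls. Without KO 2, which leaves KO as 1 sample, Irf4, Irf8 and Ifi203 passed and the other 9 did not, and the calls over all genes fell too, to 3.94% higher and 3.41% lower. In that fit the log2 fold changes of Ifit3, Gbp3 and Oasl2 were -0.63, -0.62 and -0.59, against -0.67, -0.67 and -0.63 with all libraries. Those of Ifit1, Gbp10 and Rsad2 were -0.60, 1.06 and 0.65, against -0.50, 1.00 and 0.49. The cause of the lost calls was not tested. Without WT 1, which leaves WT as 1 sample, 4 members were higher and 7 lower, against 8.52% and 6.62% of all genes. Without KO 3, 6 were higher and 7 lower, against 8.91% and 8.48%.

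**Figure D1:**
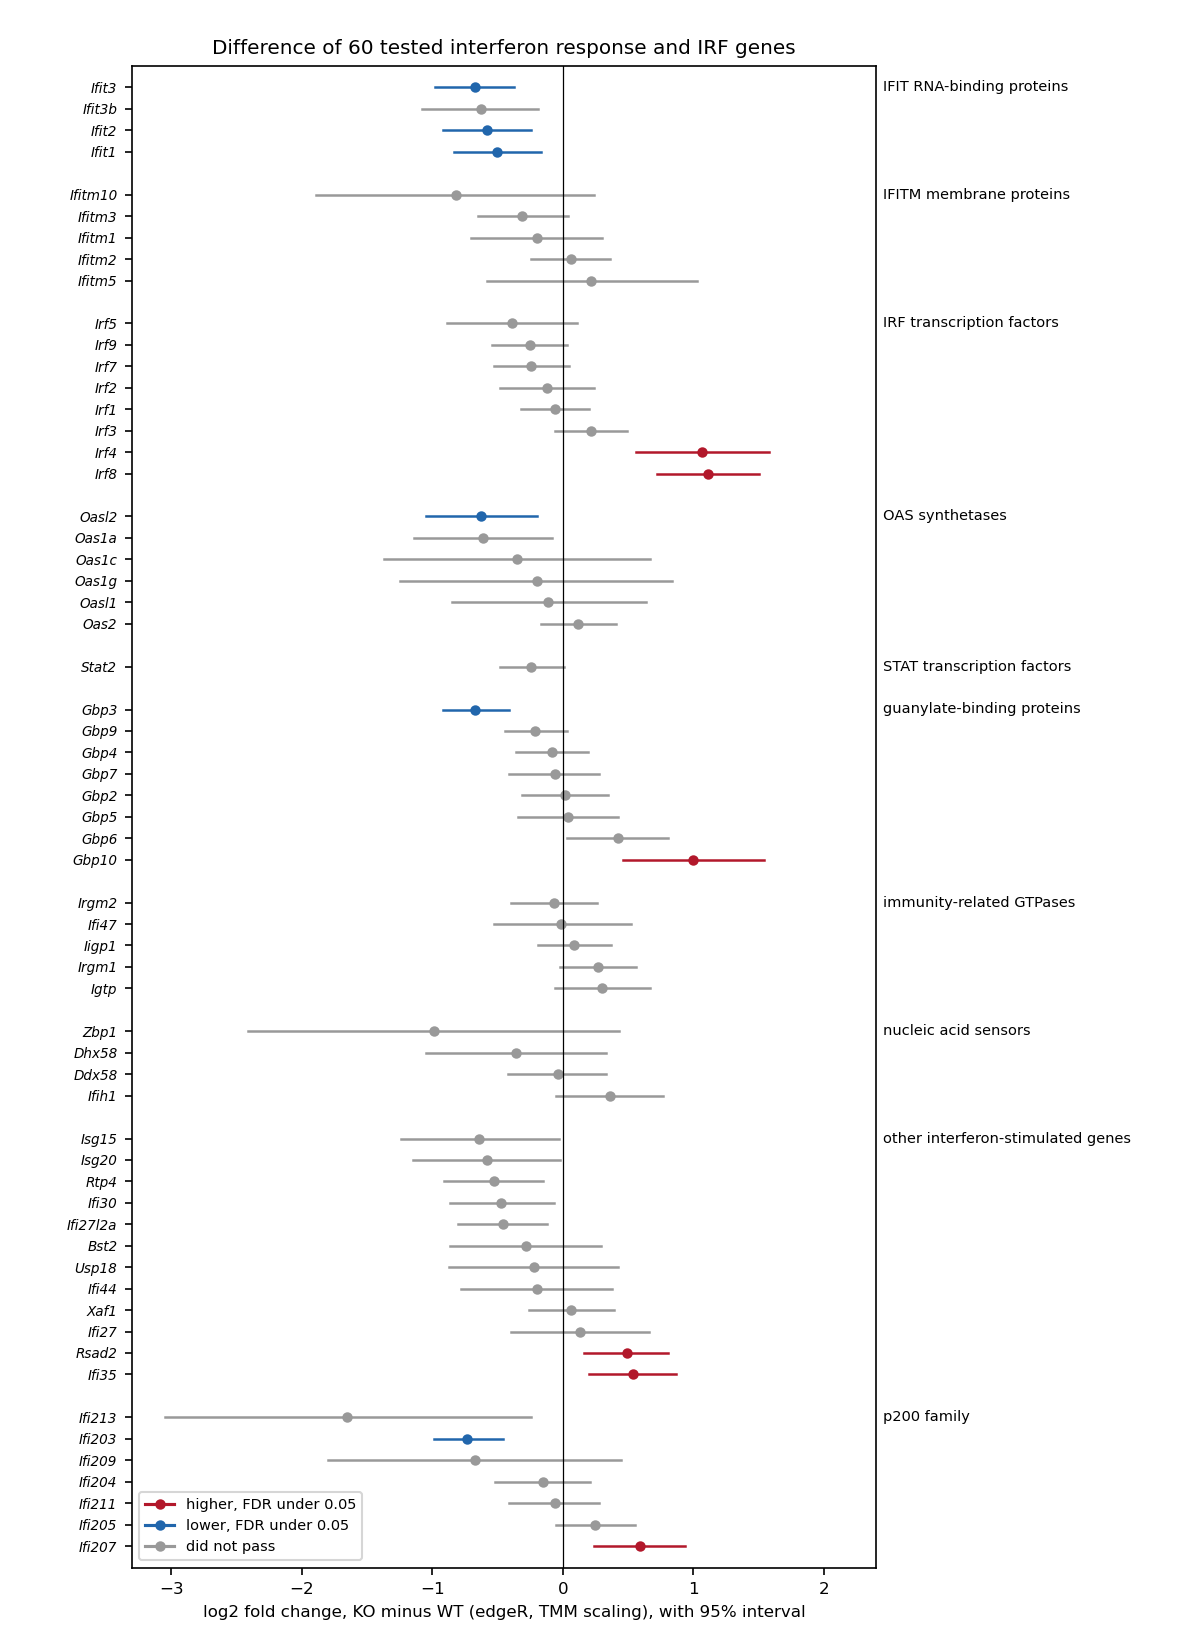
Log2 fold change of KO minus WT (x axis, TMM scaling) with its 95% interval for 60 of the 62 tested members, grouped by family. Points to the right of 0 are higher in KO. The 6 higher members lie between 0.49 and 1.11, the 6 lower between -0.73 and -0.50, and all 4 tested IFIT genes lie below 0.

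These directions are relative to the other nuclear transcripts. Mitochondrial transcripts took 85.3% to 86.0% of the counts in KO and 90.6% to 90.8% in WT, and the trimmed mean of M-values (TMM) scaling used here centres the bulk of the genes, and CPM below is each count per library size after that scaling. Without TMM factors, on total counts alone, the median of all tested genes moved to 0.54 on the log2 scale, 50.2% of them were called higher and 2.64% lower. On that scale 26 members were called higher and 0 lower, and the differences of the 6 lower members ran from -0.18 in Ifi203 to 0.05 in Ifit1.

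Some libraries were close to copies of each other. The spread between KO 1 and KO 3 was below the sampling noise of read pairs (median over genes of the ratio 0.941), and so was that between WT 2 and WT 3 (0.964), while the other pairs had 1.31 to 1.63. Each of those close pairs was summed and counted as 1 sample, so means ± SD and tests rest on n = 2 samples per group. Values per library are given beside each mean ± SD. The targeted gene, Igf2bp2, was counted 13, 14 and 10 times in the KO libraries and 38, 20 and 24 times in WT. Counts on nuclear genes ran from 4604575 to 4899680 per KO library and from 2625472 to 3205190 per WT library. Members took 0.293% to 0.306% of nuclear counts in KO and 0.334% to 0.350% in WT. In bulk tissue, fewer cells of a type and less RNA per cell cannot be told apart, and genes typical of tissues other than the joint were present: 8 salivary gland genes summed to 416 to 430 CPM in KO and 24.1 to 28.1 in WT, and 7 olfactory genes to 3.08 to 4.26 and 29.6 to 31.4. Markers of Schwann cells, the glia of nerves, fell in 6 of 6 genes (471 to 484 CPM in KO and 1390 to 1430 in WT), 2 of 4 tested neutrophil genes, S100a8 and S100a9, fell, and 3 of 8 fast muscle genes rose. The 6 joint markers summed to 51.9 to 60.3 CPM in KO and 22.7 to 26.4 in WT. Prg4, the lubricin of synovium and cartilage surface, made up most of that sum (46.0 CPM in KO, 11.3 in WT) and rose, Col10a1 fell, and the cartilage genes Col2a1 (1.25 and 1.47 CPM) and Acan (0.696 and 0.927 CPM) were low in both groups. The part of these shifts in the results on interferon genes was not tested.

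Promoters of the members were searched for the letters of the elements that interferon signals act on. RefSeq promoters (build GRCm38.p6, 250 bases before to 50 after a start site) were found for 56 members. The ISRE was searched as TTTCNNTTTC and the GAS as TTCNNNGAA, on both strands, with overlapping matches counted apart. An ISRE match stood in the promoters of 33 of these 56 members (58.9%), against 3.66% of the 11526 tested genes with a promoter in the table and 3.44% of all its 32851 promoters. A GAS match stood in 26.8% of the members and in 8.09% of the tested genes. Of the lower members 4 of 6 had an ISRE match and of the higher ones 2 of 5, with no promoter in the table for Gbp10. These stretches of 60 bases, 5′ to 3′ in the direction of transcription, hold an ISRE match of each changed member that has one, and Ifit3b is shown beside Ifit3. Capitals mark the matches wholly inside the stretch.
Ifit1, chr19:34640779-34640838, plus strand: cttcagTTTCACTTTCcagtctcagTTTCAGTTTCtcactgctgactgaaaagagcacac
Ifit3, chr19:34583382-34583441, plus strand: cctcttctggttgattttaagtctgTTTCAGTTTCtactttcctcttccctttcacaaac
Ifit3b, chr19:34607778-34607837, plus strand: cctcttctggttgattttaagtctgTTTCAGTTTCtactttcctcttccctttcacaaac
Gbp3, chr3:142559980-142560039, plus strand: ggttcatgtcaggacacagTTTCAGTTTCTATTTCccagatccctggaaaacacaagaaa
Ifi203, chr1:173942493-173942552, minus strand: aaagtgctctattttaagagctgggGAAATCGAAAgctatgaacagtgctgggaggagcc
Ifi207, chr1:173741816-173741875, minus strand: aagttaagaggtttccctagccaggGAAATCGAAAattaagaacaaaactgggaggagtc
Rsad2, chr12:26456538-26456597, minus strand: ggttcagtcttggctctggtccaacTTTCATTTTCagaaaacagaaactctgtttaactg

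The Ifit1 stretch holds a pair of separate matches and the Gbp3 stretch a pair that overlap. Ifit3 and Ifit3b are identical over all 60 bases. The Ifi203 and Ifi207 stretches have the same ISRE letters on the minus strand of the promoter and 39 of 60 bases in common, yet Ifi203 was lower and Ifi207 higher in KO. Irf8 and Irf4 had no ISRE match in these windows. GAS matches of the changed members stood in Irf8, Ifi35 and Ifit2, shown likewise with the match in capitals. A match is a description of the letters, not a measured binding site, and the lack of a match does not show that an element is absent.
Irf8, chr8:120736179-120736238, plus strand: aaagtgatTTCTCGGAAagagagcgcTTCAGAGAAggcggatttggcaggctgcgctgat
Ifi35, chr11:101448393-101448452, plus strand: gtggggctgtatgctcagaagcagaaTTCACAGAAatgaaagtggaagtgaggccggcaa
Ifit2, chr19:34550444-34550503, plus strand: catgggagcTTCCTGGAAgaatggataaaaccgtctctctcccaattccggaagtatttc

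**Figure D2:**
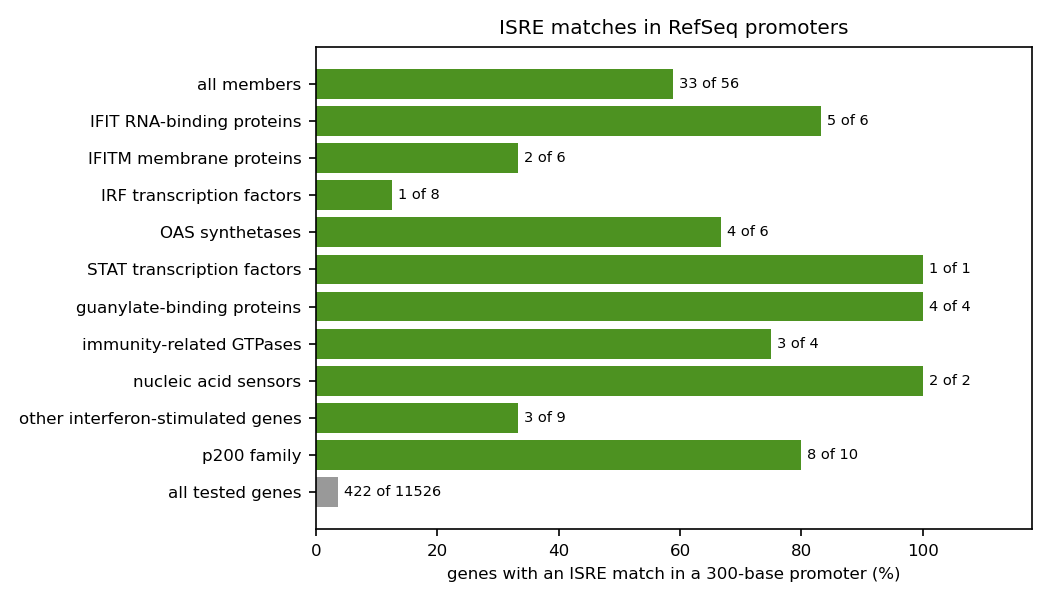
Share of genes with at least 1 ISRE match in a RefSeq promoter (x axis, percent) by family, with counts beside the bars. The share is 58.9% over all members, 12.5% among IRF genes and 3.66% among all tested genes (grey).

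RNA levels of the ligand, receptor and kinase genes are given first, and signalling itself was not measured. Interferon ligand genes were hardly present: of 21 listed only Ifng and Ifnz had a row, with 4 counts over the KO and 2 over the WT libraries. Of the 6 receptor genes 1 was higher and none lower in KO, against 9.15% and 8.48% of all tested genes. Ifngr1, the ligand-binding chain of the interferon gamma receptor, had 17.3, 18.9 and 16.6 CPM in the KO libraries and 12.4, 13.5 and 12.9 in WT. The KO libraries all lay above the WT ones, with a difference of 0.48 on the log2 scale (SE 0.12, edgeR FDR 0.011), a call that was lost without KO 2 (FDR 0.22). Its partner Ifngr2 had a difference of -0.45 (FDR 0.125), and Ifnar1 and Ifnar2, the chains of the type I receptor, 0.16 and -0.15 (FDR 0.466 and 0.557). The kinases Jak1, Jak2 and Tyk2 had differences of 0.05, 0.05 and -0.07, and none passed (edgeR FDR 0.806 or higher). The 95% interval was -0.21 to 0.30 for Jak1, -0.22 to 0.32 for Jak2 and -0.37 to 0.24 for Tyk2.

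Among the IRF genes, Irf8 and Irf4 were higher in KO, and the other 7 did not pass. Over all tested genes 9.15% were higher and 8.48% lower. Irf8, a factor of macrophage and dendritic cell development, had 4.88, 4.53 and 3.10 CPM in the KO libraries and 1.98, 1.49 and 2.37 in WT. KO 3 stood below the other KO libraries and above every WT library. The mean of Irf8 was 4.28 ± 0.382 CPM in KO and 1.97 ± 0.0154 in WT (SD, n = 2). These SDs leave out the spread within the summed pairs, KO 1 with KO 3 and WT 2 with WT 3. The fold change was 1.11 on the log2 scale (SE 0.18, edgeR FDR 0.000794). Irf4, which acts in lymphocytes, some macrophages and fat cells, had 2.39, 2.13 and 2.70 CPM in KO and 1.19, 0.612 and 1.47 in WT. WT 2 was the lowest, with 14 counts against 38 in WT 3, a spread that their summing leaves out of the SD. No KO library overlapped WT, with means of 2.35 ± 0.296 and 1.14 ± 0.0871 CPM and a log2 fold change of 1.07 (SE 0.23, FDR 0.00598). These are the only members that passed in all 16 other settings run, with log2 fold changes of 0.96 to 1.27 for Irf8 and 0.82 to 1.34 for Irf4 over the 15 that keep TMM or a like scaling.

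Markers of immune cells that can express Irf8 and Irf4 are given beside them. Of 10 macrophage markers 7 were lower and 1, Mertk, higher in KO, and their summed level was 65.1 to 69.0 CPM in KO and 98.2 to 119 in WT. The 6 B and plasma cell markers summed to 0.379 to 0.830 CPM in KO and 0.350 to 0.776 in WT, and 5 of the 10 T and NK cell markers had no row and the other 5 had 39 counts in KO and 27 in WT. Siglech, a marker of plasmacytoid dendritic cells, had 6 counts over KO and 36 over WT. Siglech is the marker of that list that fell. The part of these cells in the levels of Irf8 and Irf4 was not tested.

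Other IRF genes are given with their values. Irf1, an early target of interferon gamma, had 10.5, 9.41 and 8.13 CPM in KO and 9.99, 9.92 and 9.28 in WT, and the groups overlapped (FDR 0.793). Irf3, the factor that switches on interferon genes after virus sensing, had 8.74 ± 0.266 CPM in KO and 7.52 ± 0.151 in WT (SD, n = 2). Its difference was 0.22 with FDR 0.282, and its libraries had 7.63, 8.89 and 9.36 CPM in KO and 7.60, 6.95 and 7.76 in WT. Irf7, the interferon-induced relative of Irf3, had 6.58 ± 0.028 and 7.80 ± 0.683 CPM, a difference of -0.24 (95% interval -0.53 to 0.05, FDR 0.262). Its libraries had 6.27, 6.57 and 6.76 CPM in KO and 8.25, 6.21 and 8.23 in WT, and WT 2 lay below every KO library. Irf9, the DNA-binding partner of STAT proteins, had 7.49 ± 0.147 and 8.97 ± 0.911 CPM (difference -0.25, FDR 0.218). Its libraries had 6.93, 7.56 and 7.75 CPM in KO and 9.58, 7.61 and 8.89 in WT, which overlapped. Irf2 had a difference of -0.12 (FDR 0.694). Irf5, expressed in myeloid cells, had -0.39 (FDR 0.287), and its WT libraries were widely spread, at 1.94, 2.88 and 1.09 CPM.

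**Figure D3:**
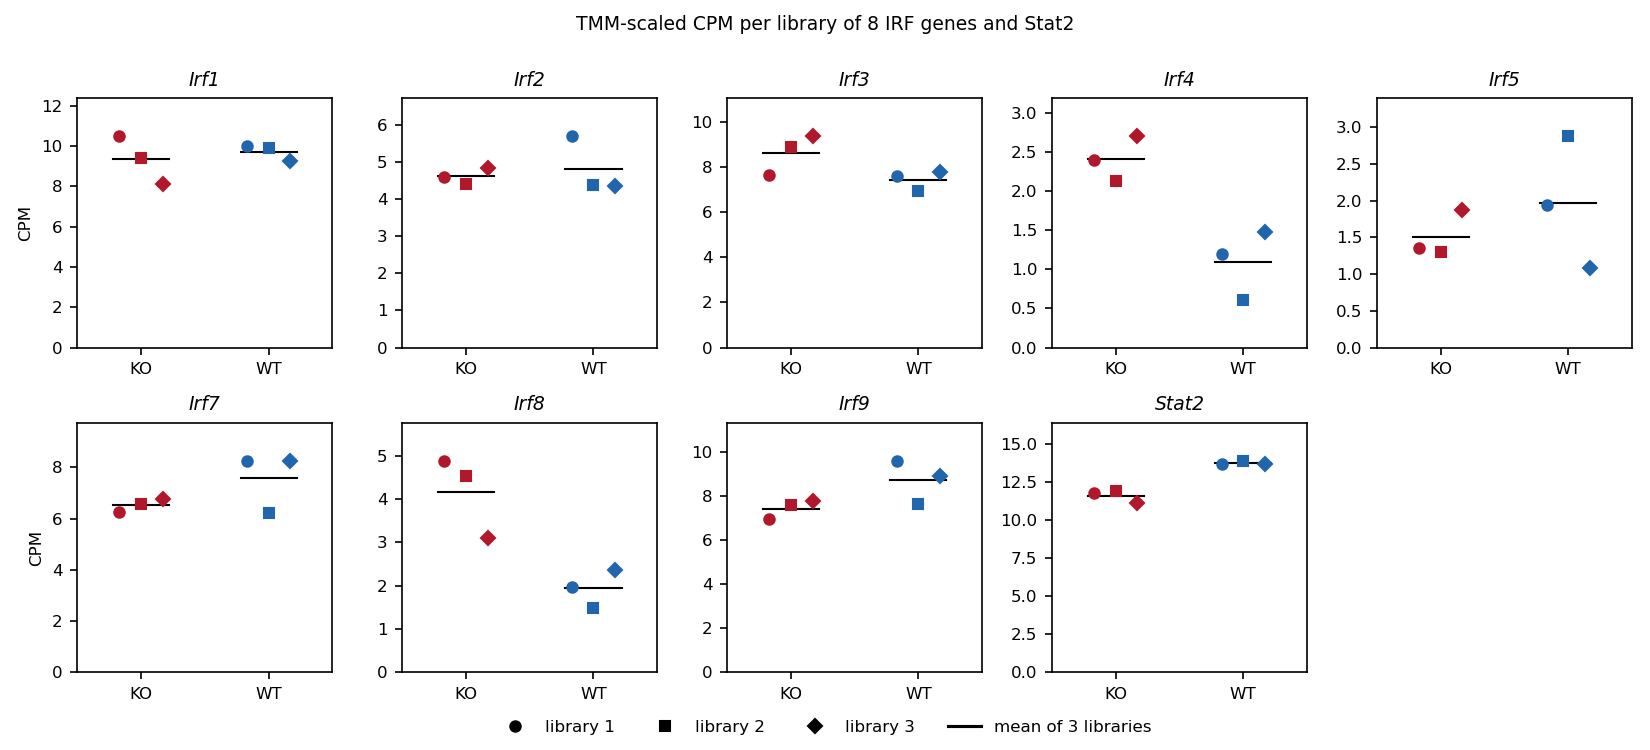
TMM-scaled CPM (y axis, from 0) of 8 IRF genes and of Stat2 in each library of KO and WT. Symbols mark libraries 1 to 3 and the line their mean. Irf4 and Irf8 lie higher in every KO library than in any WT library, and Stat2 lies lower in every KO library without passing the test.

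Stat2, a carrier of the type I signal, was lower in every KO library than in any WT library but did not pass. It had 11.8, 11.9 and 11.1 CPM in KO and 13.7, 13.9 and 13.7 in WT, a log2 difference of -0.24 (95% interval -0.48 to 0.01, edgeR FDR 0.181). Over all tested genes, 19.1% had every KO library above every WT library and 19.3% had every KO library below. Among the tested members these shares were 14.5% (9 genes) and 24.2% (15 genes).

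The IFIT genes, whose proteins bind foreign RNA and block its translation, were the family with the most called members. Of 4 tested, 3 were lower in KO, and the KO libraries lay below the WT libraries in all 4. Over all tested genes, 8.48% were lower and 19.3% had every KO library below every WT library. The family is singled out here by its calls. Ifit3 and Ifit3b share part of their transcript sequence, so the 4 are not separate observations. Ifit3 had 5.01, 4.81 and 5.20 CPM in the KO libraries and 7.50, 8.04 and 8.58 in WT (log2 fold change -0.67, SE 0.14, edgeR FDR 0.00431). Ifit2 had 3.90, 4.17 and 3.79 CPM in KO and 6.48, 5.11 and 5.90 in WT (-0.58, SE 0.16, FDR 0.0207). Ifit1 had 3.72, 4.43 and 3.96 CPM in KO and 5.83, 5.94 and 5.74 in WT (-0.50, SE 0.15, FDR 0.0378). Each of the 3 rests on 455 to 625 counts a group. On total counts without TMM factors Ifit3, Ifit2 and Ifit1 were at -0.12, -0.03 and 0.05 and did not pass. Ifit3b, named after its values were seen, had a difference of -0.63 and just missed the limit (FDR 0.0509).

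The log2 fold changes of these IFIT genes moved little when 1 library was left out, from -0.73 to -0.63 for Ifit3, -0.63 to -0.46 for Ifit2 and -0.60 to -0.47 for Ifit1. Their FDR was above 0.05 in some of these smaller fits: without KO 2 it was 0.0855, 0.114 and 0.126 for Ifit3, Ifit2 and Ifit1, without WT 1 it was 0.0866 for Ifit2 and 0.0687 for Ifit1, and Ifit1 had 0.0555 without KO 1 and 0.0566 without WT 2. Ifit3 shares 51.2% of the 50-base stretches of its longest transcript with Ifit3b, so reads of this pair cannot be assigned with certainty, while Ifit2 shares none with another gene. The pair Ifit1bl1 and Ifit1bl2 had 13 and 22 counts over all libraries and was not tested.

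The OAS genes encode synthetases of 2-5A, the messenger that activates RNase L, and relatives without that activity. Of 6 tested 1 was lower and none higher, against 8.48% and 9.15% of all tested genes. Oasl2, whose protein has ubiquitin-like domains, had 4.24, 4.13 and 4.54 CPM in KO and 8.12, 5.55 and 5.05 in WT, where WT 1 stood far above the others. Its log2 fold change was -0.63 (SE 0.19, edgeR FDR 0.0455), but -0.29 without WT 1 (FDR 0.278). Leaving out KO 1, KO 2 or WT 2 also ended the call (FDR 0.0539, 0.231 and 0.058). Oas2, the most abundant OAS gene in CPM, had 7.27, 7.47 and 7.55 CPM in KO and 6.51, 6.95 and 7.34 in WT and did not pass (0.12, FDR 0.613). Oas1a had -0.61 (FDR 0.108) and shares 57.6% of its transcript stretches with Oas1g. Oas1c, Oas1g and Oasl1 had differences of -0.35, -0.20 and -0.11, and Oas3, with 23 counts in all, was not tested.

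Guanylate-binding proteins (GBPs), GTPases that attack the vacuoles of intracellular pathogens, held 1 higher and 1 lower gene of 8 tested. Over all tested genes these shares were 9.15% and 8.48%. Gbp10 had 1.87, 1.75 and 1.99 CPM in KO and 0.955, 0.918 and 0.893 in WT, higher in every KO library (1.00, SE 0.25, edgeR FDR 0.0139). Without KO 2 its FDR was 0.0729. Gbp10 shares 82.5% of its transcript stretches with other gene models, so this value may hold reads of near copies. Gbp3 had 9.63, 8.37 and 8.23 CPM in KO and 14.2, 12.2 and 14.5 in WT (-0.67, SE 0.12, FDR 0.00135), with 4.79% shared, and was lost without KO 2 (FDR 0.0588). Gbp9, the GBP gene with the highest CPM, had 20.9, 20.2 and 19.6 CPM in KO and 24.3, 22.6 and 22.6 in WT, which did not overlap and did not pass (-0.21, FDR 0.224). Gbp6 stood on the other side, at 0.42 (FDR 0.132), and Gbp2, Gbp4, Gbp5 and Gbp7 lay between -0.08 and 0.04.

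The immunity-related GTPases act on the same vacuoles and are induced mainly by interferon gamma. Of the 5 members among them none was called, against 9.15% higher and 8.48% lower of all tested genes. Unadjusted edgeR p did not fall under 0.05 in any of the 5. Irgm1 had 8.50, 7.85 and 7.72 CPM in KO and 7.09, 6.21 and 6.21 in WT, without overlap (0.27, edgeR FDR 0.2). Igtp, Iigp1, Ifi47 and Irgm2 had differences of 0.30, 0.09, -0.01 and -0.07. Tgtp1 and Tgtp2, related GTPases outside the family definition, were higher in KO, at 0.50 and 0.38 (edgeR FDR 0.0175 and 0.0497).

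The PYHIN proteins of the p200 family bind DNA in the nucleus or cytosol, and mouse carries them in a cluster of related copies. Of 7 tested 1 was higher and 1 lower, against 9.15% and 8.48% of all tested genes. Ifi203 had 6.75, 7.35 and 6.82 CPM in KO and 11.7, 11.9 and 11.5 in WT, with no overlap (-0.73, SE 0.12, edgeR FDR 0.000968). It kept its call without any 1 library (FDR up to 0.0228) but not on total counts (FDR 0.3). Ifi207 had 4.80, 4.67 and 4.42 CPM in KO and 3.21, 2.80 and 3.14 in WT (0.59, SE 0.16, FDR 0.0231), lost without KO 2 (FDR 0.154). Transcript stretches shared with other genes were 10.7% for Ifi203 and 7.39% for Ifi207. Mndal, a relative outside the family definition, was lower too, at 6.32 ± 0.0809 CPM in KO and 12.4 ± 0.692 in WT (-0.97, FDR 0.000101). Its libraries had 5.93, 6.23 and 6.74 CPM in KO and 12.9, 11.1 and 12.5 in WT. Ifi204, Ifi205, Ifi209, Ifi211 and Ifi213 did not pass, and Ifi213, the lowest at -1.65, rests on 12 KO and 25 WT counts.

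Sensors of viral nucleic acid among the members did not pass. Ifih1 (MDA5) had 2.82, 3.34 and 3.23 CPM in KO and 2.73, 2.23 and 2.29 in WT (0.36, edgeR FDR 0.224), and Ddx58 (RIG-I) overlapped between groups (-0.04, FDR 0.915). Dhx58 (LGP2) and Zbp1 had -0.36 and -0.99 (FDR 0.502 and 0.339). Of 15 tested sensors and adaptors outside the members 1 rose and 1 fell (6.67% each), against 9.15% and 8.48% of all tested genes. Trim25, the ubiquitin ligase of the RIG-I pathway, had 27.1, 27.5 and 28.5 CPM in KO and 13.5, 12.8 and 12.8 in WT (1.07, SE 0.11, FDR 1.71e-05). Sting1, the adaptor of DNA sensing, had 1.08, 1.21 and 1.39 CPM in KO and 3.03, 2.27 and 2.91 in WT (-1.19, SE 0.22, FDR 0.00165).

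**Figure D4:**
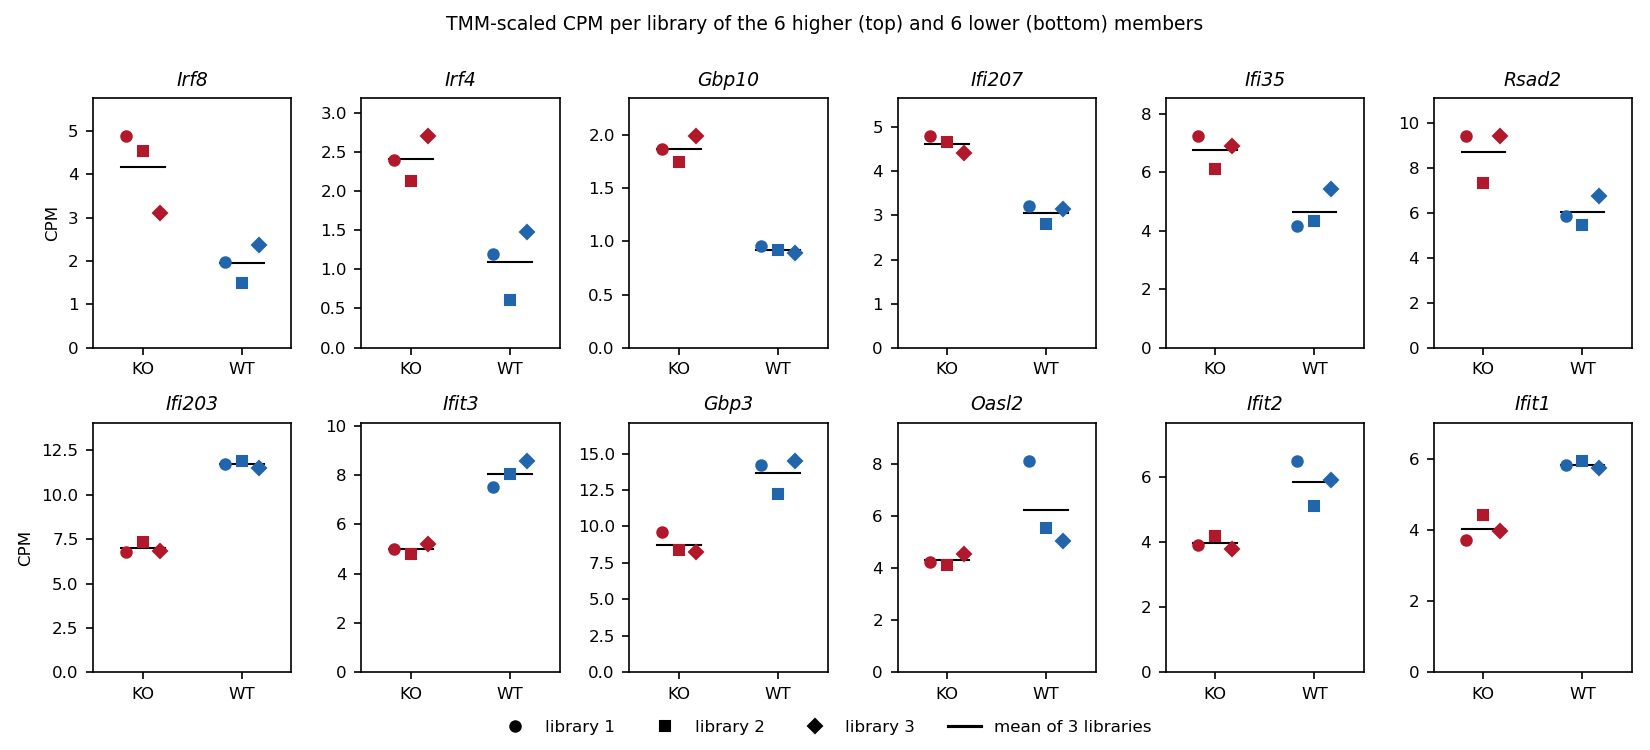
TMM-scaled CPM (y axis, from 0) per library of the 6 members higher in KO (top row) and the 6 lower (bottom row). Symbols mark libraries 1 to 3 and the line their mean. KO and WT libraries do not overlap in any panel, and WT 1 stands apart in Oasl2.

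The other interferon-stimulated genes held 2 higher genes and none lower of 12 tested, against 9.15% and 8.48% of all tested genes. Rsad2 (viperin), an enzyme that makes a chain-terminating nucleotide, had 9.42, 7.33 and 9.42 CPM in KO and 5.87, 5.46 and 6.75 in WT (0.49, SE 0.15, edgeR FDR 0.0401). The KO 2 and WT 3 libraries lay close together, and leaving out KO 1, KO 2, WT 1 or WT 2 ended the call (FDR 0.0504, 0.0571, 0.0749 and 0.103). Ifi35, a leucine zipper protein that pairs with NMI, had 7.24, 6.12 and 6.89 CPM in KO and 4.16, 4.33 and 5.43 in WT (0.54, SE 0.16, FDR 0.0292), a call ended by leaving out KO 2, WT 1 or WT 2 (FDR 0.0929, 0.0935 and 0.0867). Rtp4 and Ifi27l2a, named after their values were seen, came close on the lower side, at -0.53 and -0.46 (FDR 0.0564 and 0.0608). With 6 separate libraries they passed as lower, together with Ifi30, Isg15, Ifit3b and Ifitm3.

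Of 61 tested interferon-induced genes outside the members 4 rose (6.56%) and 6 fell (9.84%), against 9.15% and 8.48% of all tested genes. Helz2 was among those that rose (0.55, edgeR FDR 0.00631), a call that was lost without KO 2. Mndal, Uba7 and Ube2l6 were among those that fell. Uba7, the enzyme that activates the ubiquitin-like ISG15, had 5.03, 5.90 and 5.40 CPM in KO and 12.7, 9.09 and 7.96 in WT (-0.92, SE 0.18, edgeR FDR 0.00515), and Ube2l6, its conjugating enzyme, 3.57, 2.87 and 3.33 and 5.90, 4.55 and 5.71 (-0.79, SE 0.17, FDR 0.00522). The call of Ube2l6 was lost without KO 2 (FDR 0.0958). Isg15 itself had 2.18, 1.38 and 1.62 CPM in KO and 1.84, 3.50 and 2.99 in WT, which overlapped (-0.64, FDR 0.144). Usp18, which removes ISG15 from proteins, did not pass (-0.22, FDR 0.678). Herc6, also among the interferon-induced genes outside the members, stood on the other side. It had 3.06, 3.75 and 3.03 CPM in KO and 1.88, 2.88 and 2.72 in WT, without overlap, and did not pass (0.50, FDR 0.139). Among 14 feedback regulators 2 fell (14.3%) and none rose, against 8.48% and 9.15% of all tested genes. Socs3, which blocks JAK kinases, had 0.796, 1.16 and 0.808 CPM in the KO libraries and 1.94 to 2.19 in WT (-1.09, SE 0.26, FDR 0.0107), and Ptpn6, a phosphatase of blood cells, had -0.95 (FDR 0.0394), a call that leaving out KO 2, KO 3, WT 1 or WT 3 ended (FDR 0.208, 0.116, 0.199 and 0.06).

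Levels between genes are compared per transcript length, as CPM per kb of the longest transcript. Ifitm3 and Ifitm2, of the IFITM family of membrane proteins that block virus entry, led: Ifitm3 had 46.4 CPM per kb in KO and 57.3 in WT, and Ifitm2 47.1 and 45.2. Ifi27l2a followed, with 14.5 and 19.8. None of these passed, and none of the 5 tested IFITM genes did (edgeR FDR 0.217 or higher). In CPM, Ifitm3 had 34.6, 29.3 and 32.1 in KO and 32.2, 44.9 and 45.4 in WT, and WT 1 lay among the KO libraries. All 12 changed members stood below these. Gbp3 was the highest of them in WT (3.24 CPM per kb in KO and 5.16 in WT), Ifi35 the highest in KO (4.86 CPM per kb), and Irf4 the lowest in both (0.494 and 0.238). Ifitm2 shares 48.5% of its transcript stretches with other gene models. The other IFITM genes stood far lower, with Ifitm1 at 2.12 CPM per kb in KO and 2.42 in WT and Ifitm10 at 0.0818 and 0.153. Ifitm5, an osteoblast gene despite its family name, rests on 93 counts over KO and 50 over WT, and did not pass (0.22, FDR 0.753).

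**Figure D5:**
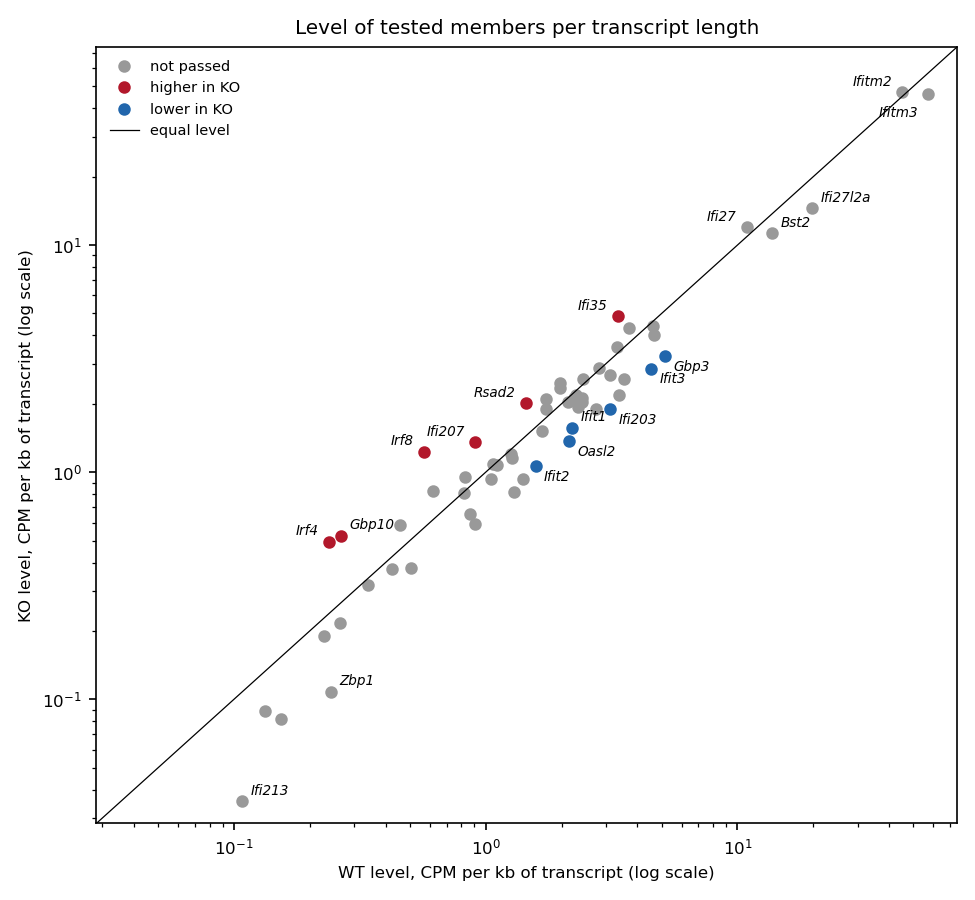
Level of 60 of the tested members in KO against WT, in CPM per kb of its longest transcript (both axes logarithmic), with the line of equal levels. Ifitm3 and Ifitm2 stand at the top, at 46.4 and 47.1 in KO, and Irf4 and Gbp10 are the changed members of lowest level.

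The 10 members with too few counts to test were Ifit1bl1, Ifit1bl2, Ifitm6, Oas3, Gbp8, Ifi44l, Ifi202b, Ifi206, Ifi208 and Ifi214. Ifi202b had the most, 19 over KO and 16 over WT, and Ifi44l and Ifi208 had 2 counts each in 1 group.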

How the data were processed

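Poly(A) RNA of TMJ tissue was sequenced in 6 libraries. The authors deposited raw counts per gene symbol, whole numbers that are not normalized (from the values). HISAT2 2.1.0, StringTie 2.1.5 and build mm39 appear in the submitters' processing notes. The sources used here do not give their roles, the annotation, strand or treatment of shared reads, so reads of near copies, overlapping and antisense genes cannot be told apart. Groups and numbers come from the titles. No label says that libraries are separate animals, so p-values measure the spread between these samples only.

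Members, lists and the rule for named genes (called members, IRF and STAT genes, the 3 most abundant per length, pathway genes) were chosen with earlier results of these data known, and further members and markers were named after their values were seen. Some members are counted but not reported here by name. The variance limit below was set with the ratios known. Libraries of a group were summed where the median ratio of observed to counting variance was at most 1.1 (2 counts per read pair, genes of at least 20 counts). Genes were kept by filterByExpr (minimum count 10) and tested with edgeR 4.0.16 in R 4.3.3 (TMM, robust quasi-likelihood, Benjamini-Hochberg FDR 0.05). The procedure was also run on simulated counts without a mitochondrial shift between groups, so that run does not test it under such a shift. The SE is the absolute change over the square root of F. Total counts were 28551236 to 35094127 per library. Transcript lengths and shared stretches come from GENCODE M21, promoters from RefSeq, both on GRCm38, so only promoter coordinates are given. Alternatives were other scalings and filters, DESeq2 1.42.0, limma-voom (limma 3.58.1), separate libraries, a replicate block and leaving out each library. Scaling by total counts was added after seeing the data.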

Additional observations from a re-analysis of the deposited data

How the results depend on the processing

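Of 180 results of the 12 changed members under the 15 other settings that scale by more than total counts, 150 kept direction and call, 30 lost the call and 0 reversed. The number of members higher in KO was 6 in all of those settings that use every library, except 2 with the DESeq2 Wald test, and 2 to 6 when a library was left out. The number lower was 3 with DESeq2, 12 with 6 separate libraries and 1 to 7 when a library was left out. The lowest counts, 2 and 1, came without KO 2, where Irf4, Irf8 and Ifi203 remained. Without KO 2 or WT 1 a group is 1 sample whose spread is assumed to be like that of the other. Over all genes, calls fell from 1339 higher and 1241 lower to 616 and 533 without KO 2 and to 896 and 738 with DESeq2. The cause was not tested. On total counts without TMM factors, an alternative chosen after seeing the data, 26 members were higher and 0 lower, since every difference moves up by the same scaling shift. Ifit1 was then at 0.05. Of those 26 members, 20 had not been called before. Among these 20, Irf1, Gbp4, Gbp7, Gbp9, Irgm2, Ddx58 and Ifi211 had negative differences with TMM scaling. They were now at 0.49, 0.47, 0.50, 0.34, 0.49, 0.51 and 0.49. Tyk2, outside the members, changed sign likewise and was called higher at 0.48. Libraries with the same number did not deviate together (correlations of -0.092, -0.14 and 0.074 over 12236 genes). With 3 libraries per group and a close pair in each, this cannot tell whether the numbers pair the samples. With the replicate block on 6 separate libraries, 6 members were higher and 9 lower, against 1493 and 1448 of all 13806 genes. Counting precision limits members under about 50 counts, and no interval here covers differences between animals.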
